A study of Orbicella faveolata with 18 samples.

Results

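The comparison described here is the upper temperature step of a thermal stress experiment on embryos of the reef-building coral Montastraea (now Orbicella) faveolata: embryos kept at 31.5°C against embryos kept at 29.0°C, both sampled 48 hours after fertilization. Its members are the clones of a cDNA array with a log2 ratio on at least 2 of the 3 arrays of both temperatures, 1215 of the 1218 clones in the deposited table. The embryos came from 1 spawning, carried no algal symbionts, were fertilised at a shared temperature between the 2 compared here and were then moved to 27.5, 29.0 or 31.5°C. Whole embryos of a condition were pooled into 1 RNA isolation, which was hybridised on 3 arrays with the embryo RNA in Cy5 and a pooled reference in Cy3. The series holds 18 arrays, 3 for each temperature at 12 and at 48 hours, and the 6 arrays of the comparison are 3 at 31.5°C and 3 at 29.0°C. The temperatures are those of the array titles, since the source names give slightly different ones and 1 line of the description is the same on every 48 hour array.

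Because the arrays of a temperature repeat 1 RNA isolation, their spread holds the error of labelling and hybridisation and none of the differences between cultures. Every difference below therefore compares 1 RNA sample with 1 other, and no p-value is given. In whole embryos, fewer cells of a type and less RNA per cell cannot be told apart. A ratio is set against the pooled reference, so values may be compared between temperatures for 1 clone and not between clones.

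Corals living near their upper thermal limit respond to heat with chaperones, antioxidant enzymes and changes in protein turnover, and in many animals heat also slows protein synthesis. Protein synthesis rests on the ribosome, built of ribosomal RNA and ribosomal proteins, and on elongation and initiation factors. Proteins bound for secretion or for membranes enter the endoplasmic reticulum (ER) through the Sec61 channel, where calcium-binding chaperones such as calreticulin act. Oxidants are removed by catalase, peroxidases and glutathione-dependent enzymes, while ferritin stores iron that would otherwise feed the formation of radicals.

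The arrays of 31.5°C agreed closely, with correlations of 0.92 to 0.93 across clones. At 29.0°C replicates 2 and 3 correlated at 0.85, and replicate 1 stood apart, at 0.59 and 0.69 with the others. Its log2 ratios were also more widely spread, with a median absolute deviation of 0.31 against 0.19 and 0.21 on the other arrays of 29.0°C. In log2 units the root mean square SD over clones was 0.13 for 31.5°C and 0.23 for 29.0°C. Calls of named clones that were lost without replicate 1 of 29.0°C are pointed out, as are some of the called differences that it moved. The 6 arrays held 2583 to 3365 usable spots, with a median signal over background of 2.92 to 8.83 in Cy3 and 7.03 to 14.3 in Cy5. Arrays of this comparison correlated with the 12 hour arrays of the same temperatures at -0.53 to -0.05, and the direction of every ratio follows the dyes as the methods state them.

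A clone was called different where the 95% intervals of its mean log2 ratios at the 2 temperatures did not overlap, with 1 spread per clone taken over all 18 arrays. The sum of both half-widths, termed the limit of a clone, is the log2 difference it has to pass. By this criterion 201 of the 1215 clones differed (16.5%), 79 higher (6.50%) and 122 lower (10.0%) at 31.5°C. The median limit was 0.50, the median size of a called difference was 0.55, and the smallest was 0.17. More than 2-fold changes were few, 6 clones higher and 3 lower, and 3 further clones exceeded 2-fold without passing their limits. Of the 1187 clones on all 6 arrays, 518 (43.6%) had the 3 arrays of 31.5°C all above or all below those of 29.0°C, 262 above and 256 below, and every called clone was among them. Without replicate 1 of 29.0°C, 54 clones were higher (4.44%) and 120 lower (9.88%), and 139 of the 201 calls were kept. Of the 201 calls, 112 held without each of the 6 arrays in turn. Unnamed spots of the scanner files, normalised anew, gave 381 calls among 2856 spots (13.3%), 141 higher and 240 lower, whereas centring each array on its median in place of loess gave 280 higher and 216 lower.

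**Figure D1:**
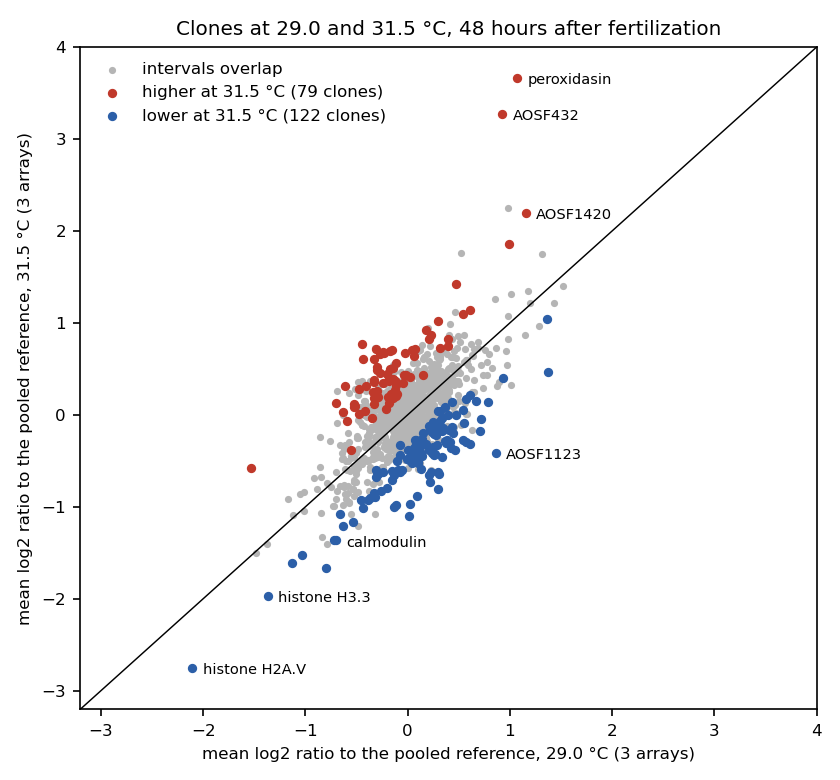
Mean log2 ratio to the pooled reference at 29.0°C (x axis) and at 31.5°C (y axis), 48 hours after fertilization, for the 1215 clones tested; each point is a clone and a mean of up to 3 arrays, and the line marks equal means. The 79 clones called higher and the 122 called lower lie on either side of the line, and peroxidasin and AOSF432 lie farthest from it.

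The largest rise was in a peroxidasin clone (AOSF997), a heme peroxidase of the extracellular matrix that uses hydrogen peroxide to cross-link collagen IV. Its log2 ratios were 3.88, 3.47 and 3.63 on the arrays of 31.5°C and 1.26, 0.76 and 1.19 on those of 29.0°C. The mean rose from 1.07 ± 0.27 to 3.66 ± 0.21 (SD, n = 3 arrays), a difference of 2.59 against a limit of 0.69, or 6.02-fold. The groups were far apart, and the 3 arrays of 27.5°C lay below both, with a mean of -0.07 ± 0.04, so that this clone stood higher at each warmer temperature. The difference was 2.68 without replicate 1 of 29.0°C. At 12 hours the same step gave -0.13, which did not pass the limit.

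The second rise was in AOSF432, a clone with no protein name in the study's list. It gave 3.34, 3.52 and 2.96 at 31.5°C and 0.86, 0.69 and 1.24 at 29.0°C. The difference of 2.35 (5.10-fold) passed a wide limit of 1.59. A hypothetical protein, AOSF1420, gave 2.21, 2.14 and 2.24 at 31.5°C and 1.26, 0.81 and 1.40 at 29.0°C. Its difference was 1.04 (limit 0.50), and its mean at 27.5°C was 0.00, so AOSF997, AOSF432 and AOSF1420 all had their lowest mean at 27.5°C and their highest at 31.5°C. CAON592, unnamed as well, rose by 0.96 (limit 0.56), from values of 0.34 to 0.67 at 29.0°C to values of 1.28 to 1.66. Its mean at 27.5°C, 0.54 ± 0.10, was not below that at 29.0°C, 0.47 ± 0.18.

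Of the other large rises, AOSB999, AOSB771 and AOSC792 also had the lowest of the 48 hour means at 29.0°C, as CAON592 did. A clone annotated as complement component q subcomponent binding protein (AOSB999), a mitochondrial matrix protein in mammals, gave 0.87, 0.77 and 0.67 at 31.5°C and -0.61, -0.30 and -0.43 at 29.0°C. It rose by 1.22 (limit 0.45, 2.32-fold), and its mean at 27.5°C, 0.36 ± 0.10, lay between. Chromodomain-helicase-7 (AOSB771), a chromatin remodeller, rose by 1.03 (limit 0.49), from between -0.49 and -0.21 to between 0.67 and 0.75. Its mean at 27.5°C, 0.34, again lay between the others. AOSC792 rose by 0.96 (limit 0.50), from -1.54 ± 0.12 to -0.58 ± 0.09, with -1.05 at 27.5°C. AOSF712, with its lowest mean at 27.5°C (-0.64), rose by 1.05 against a limit of 0.98, a call that was lost without any 1 of 5 arrays, the 3 of 31.5°C and replicates 1 and 3 of 29.0°C (0.86 to 1.11).

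Among the falls, the largest was in a predicted protein (AOSF1123). Its values were -0.52, -0.42 and -0.29 at 31.5°C and 0.85, 0.86 and 0.87 at 29.0°C. The difference was -1.27 (limit 0.42), a 2.42-fold decrease, and the groups were separated by more than the range of either. AOSF1185, another predicted protein, changed by -1.10 (limit 0.41), and the unnamed clones AOSF731, AOSC1075 and AOSF1080 by -1.11, -0.99 and -0.98. In AOSF1080 replicate 1 of 29.0°C, at 0.64, lay well above the others, at -0.21 and -0.16, and without it the difference was -0.70 and still past the limit. CAOO655 changed by -0.93 (limit 0.83) but had values of 1.41, 0.02 and 0.39 at 29.0°C. Its call was lost without any 1 of the 3 arrays of 31.5°C (-0.95 to -0.90), and its difference was -0.53 without replicate 1 of 29.0°C.

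**Figure D2:**
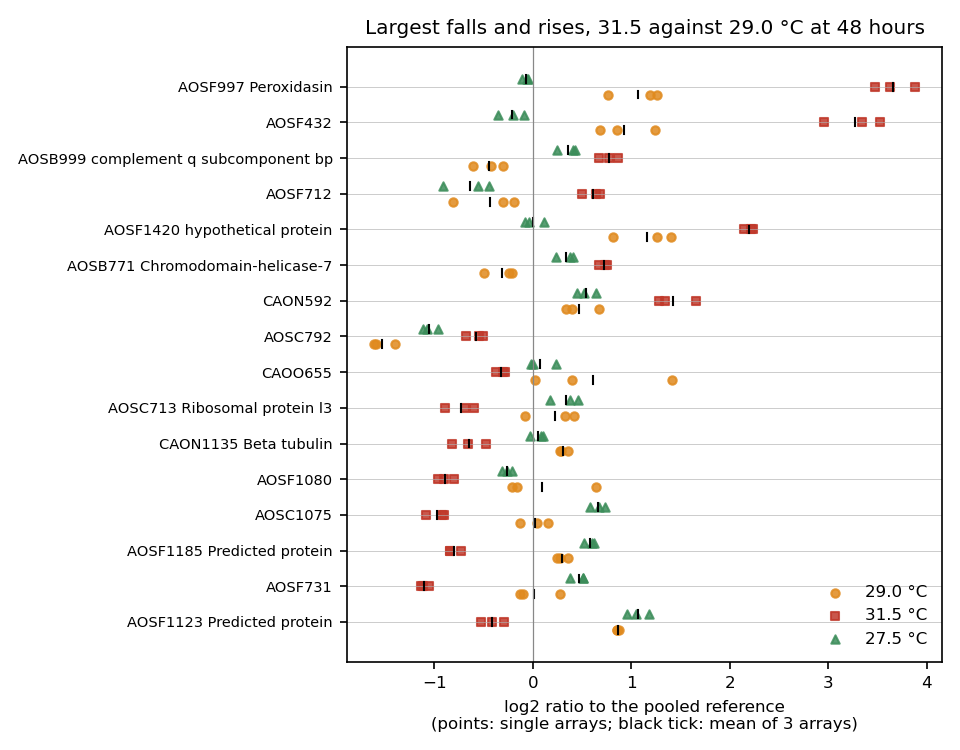
Log2 ratio to the pooled reference (x axis) on the single arrays of 27.5, 29.0 and 31.5°C at 48 hours for the 8 largest rises and the 8 largest falls between 29.0 and 31.5°C; black ticks mark means of 3 arrays. Arrays of 31.5°C lie clear of those of 29.0°C in each clone by the rule of selection, and CAOO655 and AOSF1080 have 1 array of 29.0°C far above the others.

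The functional groups below follow the annotations of a published list of clones chosen on these same arrays for differing from the coolest temperature. The list holds 538 clones, of which 537 were tested here. Counts over these groups are therefore not independent evidence of a response. They stand beside the shares over all clones, 6.50% higher and 10.0% lower, and the median difference over all clones, 0.01. Every group was drawn from the list, where 68 of the 537 clones were higher and 110 lower, with a median difference of -0.03. Outside it 11 of 678 clones were higher and 12 lower. Of the 201 called clones 178 were in that list, and 102 of them carried a protein name, out of 272 clones with such a name.

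Ribosomal proteins, the structural proteins of both ribosomal subunits, were lower at 31.5°C as a group. Of 41 clones 21 passed the criterion as lower and none as higher, 38 had a negative difference, and the median difference was -0.48. The median ratio of the 41 clones on single arrays was -0.40, -0.27 and -0.23 at 31.5°C and -0.09, 0.29 and 0.24 at 29.0°C. All arrays of 31.5°C lay below those of 29.0°C, the lowest of which was replicate 1. Without that array 31 of the 41 were lower and 1 was higher, and the median was -0.60. Without any other single array 11 to 16 clones were lower, 11 without replicate 2 of 29.0°C and 12 without its replicate 3 or replicate 1 of 31.5°C, and the median was -0.51 to -0.39.

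The largest fall among them was in ribosomal protein L3 (AOSC713), a protein of the large subunit near its catalytic centre. It gave -0.89, -0.69 and -0.59 at 31.5°C and -0.08, 0.32 and 0.42 at 29.0°C, a difference of -0.95 with a limit of 0.47. Ribosomal protein L5 (AOSF1256), which carries the 5S ribosomal RNA into the large subunit, gave -0.55, -0.25 and -0.08 against 0.53, 0.52 and 0.68, a difference of -0.87 with a limit of 0.55. In both clones the groups did not overlap. Clones with the same annotation gave similar values: the 3 clones named L15 differed by -0.57 (AOSF1141, which another of the study's lists names differently), -0.40 (AOSF736) and -0.39 (CAOO1045, not past its limit of 0.40), and the 2 clones named S16 by -0.47 (CAON533) and -0.39 (CAON1044). The 3 clones with positive differences were below their limits, and ribosomal protein S5 (CAON1341), at 0.37 with a limit of 0.45, was the highest.

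Translation factors and proteins of ribosome biogenesis shifted the same way. Of 10 clones 8 were lower and none higher, with a median difference of -0.45. The 4 clones annotated as elongation factor 1-alpha, which delivers aminoacyl-tRNA to the ribosome, were all lower. CAOO902 gave -1.03, -0.92 and -1.01 at 31.5°C and -0.11, -0.15 and -0.08 at 29.0°C, a difference of -0.87 with a limit of 0.21. AOSF1463 differed by -0.70 (limit 0.53), AOSC1120 by -0.56 (limit 0.42) and AOSF1493 by -0.42 (limit 0.39). Eukaryotic initiation factor 4A-II (AOSF620), an RNA helicase that unwinds the leader of mRNAs, differed by -0.48 (limit 0.26). An aminoacyl-tRNA synthetase clone (AOSF1161) was the exception in sign, at 0.20 within a limit of 0.65. Leaving out 1 array gave 5 to 7 lower clones, the fewest without replicate 2 of 31.5°C, and 4 were lower with the spread of the 6 compared arrays alone.

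**Figure D3:**
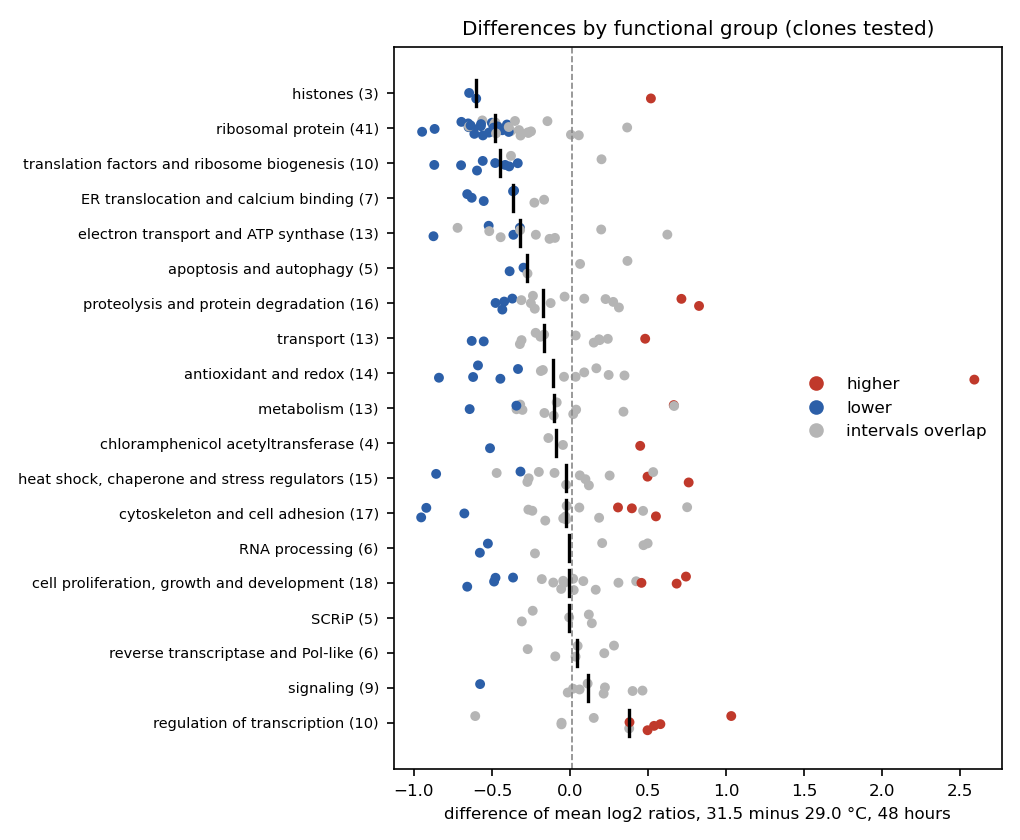
Difference of mean log2 ratios, 31.5 minus 29.0°C at 48 hours (x axis), for the clones of 19 functional groups (y axis, number of clones tested in brackets); points are clones coloured by call, black bars are group medians, and the dashed line is the median of all 1215 clones. Ribosomal protein and translation clones lie mostly to the left, with medians of -0.48 and -0.45, and regulation of transcription to the right, with a median of 0.38.

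Proteins of the ER and calcium binding were lower without exception in sign. Of 7 clones 5 were called lower, and the median difference was -0.37. Calmodulin (AOSF573), the cytoplasmic calcium sensor, gave -1.41, -1.38 and -1.30 at 31.5°C and -0.99, -0.53 and -0.60 at 29.0°C, a difference of -0.66 with a limit of 0.33. The alpha subunit of Sec61 (CAOO526), which forms the channel itself, differed by -0.63 (limit 0.43), from between -0.07 and 0.30 to between -0.66 and -0.42. The beta subunit (CAOO1095) differed by -0.55 (limit 0.47). Its call was lost without replicates 2 or 3 of 31.5°C or replicates 1 or 3 of 29.0°C (-0.55 to -0.50). Calreticulin (AOSC448) did not pass, at -0.23 with a limit of 0.41. Of the 7 clones 2 were called lower without replicate 1 of 29.0°C, with a median of -0.36, and 3 without its replicate 3 or replicate 2 of 31.5°C.

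Clones of electron transport and ATP synthase had a median difference of -0.32. Of 13 clones 4 were lower, none was higher and 11 had a negative sign. The lipid-binding subunit of mitochondrial ATP synthase (AOSC391), which forms the rotating ring of the enzyme, gave -1.03, -1.01 and -0.98 at 31.5°C and 0.14, -0.37 and -0.16 at 29.0°C. Its difference was -0.87 (limit 0.39), and the second clone of that annotation (CAON1556) gave -0.72 within a wide limit of 0.85. A subunit of NADH-ubiquinone oxidoreductase (CAON943), the first complex of the respiratory chain, differed by -0.52 (limit 0.30). Cytochrome c oxidase subunit 1 (AOSB747) stood on the other side at 0.62, within a limit of 0.86. On single arrays the group median lay between -0.57 and -0.54 at 31.5°C and between -0.27 and -0.24 at 29.0°C. Without replicate 3 of 31.5°C 2 clones were lower. Called higher was 1 clone without replicate 1 of 29.0°C, beside 5 lower, and 1 without its replicate 3, beside 3 lower. With limma and array weights 1 was higher and 8 were lower.

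**Figure D4:**
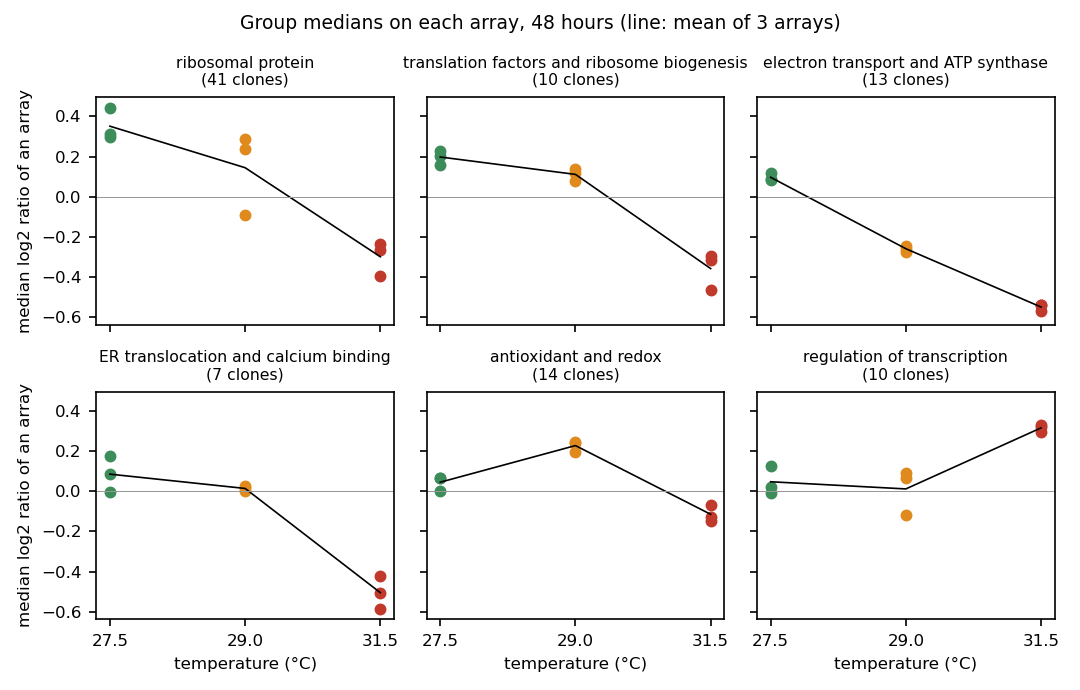
Median log2 ratio of a functional group (y axis) on each of the 3 arrays at 27.5, 29.0 and 31.5°C (x axis), 48 hours after fertilization, for 6 groups; the line joins the means of 3 arrays. The arrays of 31.5°C lie below those of 29.0°C in every panel except regulation of transcription, where they lie above, and replicate 1 of 29.0°C is the lowest point of its temperature for ribosomal proteins.

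Antioxidant and redox clones moved in both directions. Peroxidasin rose, as described, 5 of the 14 clones were lower, or 3 with the spread of the 6 compared arrays alone, and the median was -0.11. Ferritin (CAON969) gave -0.34, -0.39 and -0.40 at 31.5°C and 0.99, 0.13 and 0.26 at 29.0°C. Its difference was -0.84 (limit 0.60), and without replicate 1 of 29.0°C, the highest array, it was -0.58. Malate dehydrogenase (AOSF1222), which interconverts malate and oxaloacetate, differed by -0.62 (limit 0.40). Both glutathione S-transferase clones, AOSF1447 (-0.59, limit 0.31) and AOSF483 (-0.45, limit 0.43), were lower, as was sulfhydryl oxidase (AOSF787), at -0.33 with a limit of 0.20. Catalase, soma ferritin and cytochrome p450 did not pass. Catalase (AOSF550), which breaks down hydrogen peroxide, gave 1.32, 1.34 and 1.38 at 31.5°C and 1.09, 1.11 and 1.33 at 29.0°C, groups that overlapped, with a difference of 0.17 and a 95% interval of -0.19 to 0.52. Soma ferritin (CAON1101) differed by 0.04 (-0.17 to 0.24) and cytochrome p450 (CAON1879) by 0.09 (-0.12 to 0.30).

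The heat shock, chaperone and stress regulator group had 2 clones higher and 2 lower of 15, with a median of -0.03. Without replicate 1 of 29.0°C 1 was higher and 1 lower, and with the spread of the 6 compared arrays alone none was higher and 3 were lower. HSP90 (AOSF1451), a chaperone of signalling proteins, gave -1.04, -1.01 and -0.94 at 31.5°C and -0.91, -0.66 and -0.63 at 29.0°C. The arrays did not overlap, but the difference of -0.26 was within a limit of 0.68 (95% interval -0.75 to 0.22). A second heat shock protein (CAOO2018), measured on 2 arrays of 29.0°C, differed by -0.20 (-0.77 to 0.37), or by 0.11 without replicate 1. Heat shock transcription factor 1 (CAON1605), which switches on chaperone genes, differed by 0.10 (-0.18 to 0.38), and its arrays at 29.0°C, 0.11, 0.26 and -0.31, enclosed those at 31.5°C.

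The clones of this group that passed were regulators, a degradation adaptor and universal stress protein. Sequestosome-1 (AOSF1075), which hands ubiquitin-tagged cargo to autophagy, gave -0.68, -0.72 and -0.55 at 31.5°C and 0.04, 0.27 and 0.32 at 29.0°C, a difference of -0.86 with a limit of 0.34. Universal stress protein (AOSF1521) differed by -0.32 (limit 0.25), a call lost without replicate 1 of 29.0°C (-0.27) and with arrays scaled to the same spread (-0.39). Transcriptional regulator ATRX (AOSB947), a chromatin remodeller, rose by 0.76 (limit 0.49) from values of -0.91, -0.19 and -0.33. Without the first of these arrays, replicate 1 of 29.0°C, its rise was 0.54. Activating transcription factor 5 (CAON612), a stress-responsive leucine zipper factor, rose by 0.50 (limit 0.41). That call was lost without replicate 1 of 29.0°C, whose value was -0.46 against 0.01 and 0.06 on the other arrays, and the difference was then 0.33. None of the 5 SCRiP clones, members of a family of small cysteine-rich proteins of corals, passed the limit. They differed by -0.31 (SCRiP5, AOSF1140), -0.24 (SCRiP8, AOSF810), -0.01 (SCRiP2, AOSF1192), 0.12 (SCRiP1, AOSF1109) and 0.14 (SCRiP6, AOSF1199). On every array of 31.5°C, SCRiP5 and SCRiP8 lay below all arrays of 29.0°C. Their differences had intervals of -0.57 to -0.05 and -0.47 to -0.01, wholly negative, while those of the other clones spanned both signs. SCRiP5 was called lower with the spread of the 6 compared arrays alone and by limma with array weights. SCRiP8 was called lower with the spread of the 48 hour arrays alone, and SCRiP6 higher (0.24) by limma with array weights.

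Regulation of transcription was the group with the highest median, 0.38. Of its 10 clones 5 were higher, against 6.50% of all clones and 68 of the 537 listed clones tested, and none was lower. Differences were negative for 3 of the 10, the lowest at -0.61, and 1 had its arrays of 31.5°C all below those of 29.0°C. With linear ratios, arrays scaled to the same spread or the spread of the 6 compared arrays alone, 1 clone was called lower. Besides Chromodomain-helicase-7 and activating transcription factor 5, the latter also counted with the stress regulators, a bZIP transcription factor (AOSF512) rose by 0.58 (limit 0.34), from 0.04, 0.13 and 0.00 to 0.54, 0.76 and 0.60. CCHC-type zinc finger clones rose by 0.54 (AOSF1405, limit 0.43) and by 0.38 (CAON1821). The latter lay at its limit of 0.38 and was lost without any 1 of 5 arrays, all but replicate 2 of 31.5°C (0.32 to 0.42). Without replicate 1 of 31.5°C, or replicate 1 or 2 of 29.0°C, 3 of the 10 clones were higher.

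The 3 histone clones moved in different directions. Histone H2A.V (AOSF622), a variant of the core histone H2A, gave -2.77, -2.84 and -2.64 at 31.5°C and -1.83, -2.21 and -2.28 at 29.0°C, a difference of -0.65 with a limit of 0.35. Histone H3.3 (AOSF1219), the replacement form of histone H3, gave -2.10, -1.98 and -1.83 against -1.45, -1.27 and -1.38, a difference of -0.60 with a limit of 0.25. For both clones the mean fell at each warmer temperature, from -0.94 and -0.92 at 27.5°C. With linear ratios neither passed, nor did H2A.V with arrays scaled to the same spread (-0.57). The linker histone H1.0-A (AOSB632) rose by 0.52 (limit 0.44), a call lost without replicate 1 of 31.5°C (0.48) and when the spread came from the 48 hour arrays alone. Its values at 29.0°C were -0.98, -0.38 and -0.40, and without replicate 1 of 29.0°C its difference was 0.32 and just past the limit of 0.31.

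In the cytoskeleton and cell adhesion group, 3 clones of 17 were higher and 3 lower. Beta tubulin (CAON1135), a subunit of microtubules, changed by -0.95 (limit 0.76), and the call was lost without replicate 3 of 31.5°C (-0.87). Myosin light chain (AOSF780) gave -0.70, -0.64 and -0.53 at 31.5°C and 0.27, 0.25 and 0.37 at 29.0°C, a difference of -0.92 with a limit of 0.59. On the other side, Myosin-VIIa (AOSF969) rose by 0.55 (limit 0.28) and the kinesin-like protein KIF21B (CAON1610) by 0.40 (limit 0.23). Of these, the values of Myosin-VIIa were 0.41, 0.35 and 0.34 against -0.27, -0.16 and -0.11.

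Proteolysis clones also divided, with 2 of 16 higher and 4 lower, or 2 lower without replicate 1 of 31.5°C. The ubiquitin-like protein FUBI (CAON1748), made as a fusion with a ribosomal protein in mammals, differed by -0.48 (limit 0.23). Ubiquitin (AOSF1347), the tag for degradation, differed by -0.43 (limit 0.41), a call lost without any 1 of the 6 arrays (-0.47 to -0.38). The ubiquitin-conjugating enzyme E2 S (AOSB1028), which in human cells extends ubiquitin chains for the anaphase-promoting complex, rose by 0.83 (limit 0.58). Without replicate 1 of 29.0°C its rise was 0.65. The E3 ubiquitin-protein ligase UHRF1 (AOSB949), which maintains DNA methylation in vertebrates, rose by 0.71 (limit 0.44), from -0.58, -0.15 and -0.27 to 0.46, 0.40 and 0.28. In the apoptosis and autophagy group 2 of 5 clones were lower, ATG16 (CAOO2671) by -0.39 (limit 0.31) and cathepsin B (AOSF1172) by -0.30 (limit 0.30). ATG16, which helps to form autophagosomes, did not pass without replicate 2 of 29.0°C (-0.36), and cathepsin B, a lysosomal protease, did not pass without any 1 of the 6 arrays.

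Clones of proliferation, growth and development gave 3 higher and 4 lower of 18. The count of higher clones was 1 without replicate 1 or 2 of 31.5°C or replicate 1 of 29.0°C. Piwi-like protein 4 (AOSF1434), of the family that silences transposons in the germ line, differed by -0.49 (limit 0.34), a call lost with linear ratios and with arrays scaled to the same spread (-0.46). The nuclear receptor NHR-6 (AOSB596) rose by 0.74 against a limit of 0.68, but its values at 29.0°C were -0.30, 0.51 and 0.32, and the call was lost without replicate 1 of 29.0°C (0.51) or without any array of 31.5°C. Dynamin-A (AOSC393), a GTPase that severs membranes, rose by 0.68 (limit 0.49). In metabolism 1 of 13 clones was higher, glyoxylate reductase (AOSB445) by 0.66 (limit 0.37), or by 0.49 without replicate 1 of 29.0°C. In the same group 2 were lower, S-adenosylmethionine synthetase (CAON999), the source of the cell's methyl donor, by -0.64 (limit 0.32) and RNA 3'-terminal phosphate cyclase (CAON781) by -0.34 (limit 0.22). In RNA processing 2 of 6 were lower, NHP2-like protein 1 (AOSF1077), a protein of small nuclear and nucleolar ribonucleoproteins, by -0.58 (limit 0.36) and the branch site protein p14 (AOSF1016) by -0.53 (limit 0.23).

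Among 9 signalling clones protein tyrosine phosphatase type 1 (AOSB763) alone passed, at -0.58 with a limit of 0.24. The transport group had 2 of 13 clones lower, both Sec61 subunits described above, and syntaxin 16 (AOSC1134), a membrane fusion protein of the Golgi, higher by 0.48 (limit 0.41). The call of syntaxin 16 was lost without replicate 1 of 29.0°C (0.31) or replicates 1 or 2 of 31.5°C. Reverse transcriptase and Pol-like clones gave no call among 6. Of 4 clones annotated as chloramphenicol acetyltransferase, a bacterial resistance enzyme by its name, AOSC1094 differed by -0.51 (limit 0.36) and AOSC1103 by 0.45 (limit 0.35), the latter lost without replicate 2 of 31.5°C (0.40). The other two, CAON1217 and CAOO1050, differed by -0.14 and -0.05.

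At the edge of the criterion, cathepsin B, CAON1821 and the unnamed clone AOSC1123 (0.51) were just inside, and AOSC1136 (-0.35), AOSF738 (-0.46) and AOSF1249 (0.45) just outside. These 6 clones differed from their limits by less than the second decimal or little more. AOSC1123 was lost without any array of 31.5°C or replicate 1 of 29.0°C, and without the latter it differed by 0.32 and AOSC1136 by -0.18. With the spread of the 6 compared arrays alone, 143 of the 201 calls were kept. Among the named clones the calls lost there were those of AOSF1080, CAOO655, ferritin, malate dehydrogenase, ATRX, activating transcription factor 5, histone H1.0-A, NHR-6, syntaxin 16, glyoxylate reductase, AOSC1103 and AOSC1123. With linear ratios 170 calls were kept, and the named calls lost were those of AOSF712, CAOO655, AOSC1123, the 3 histones, syntaxin 16, Piwi-like protein 4 and the NADH-ubiquinone oxidoreductase subunit.

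The arrays of 27.5°C place the step within the whole range at 48 hours, as a description, since they were also used for the study's list. Of the 79 clones higher at 31.5°C, 31 had their mean at 27.5°C below that of 29.0°C, 42 between those of 29.0 and 31.5°C, and 6 above that of 31.5°C. Of the 122 lower clones, 70 had the highest of the 3 means at 27.5°C, 50 had that mean between the other two, and 2 had it below that of 31.5°C. By these counts, which were not tested, a graded order over the 3 temperatures was more frequent among the clones that fell than among those that rose. The order of the means at 27.5 and 29.0°C was not held to any limit. NHR-6, for example, counts as graded with means of 0.176 and 0.178. Without replicate 1 of 29.0°C 54 clones were called higher and 120 lower, and the order was not recounted there.

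The same step at 12 hours, measured on other arrays and other RNA, gave 195 calls among 1214 clones (16.1%), 113 higher (9.31%) and 82 lower (6.75%) at 31.5°C. Replicate 1 of 31.5°C at 12 hours stood apart from its group as well, at correlations of 0.55 and 0.57, and without it the count was 182. Across clones, which are not independent and share the reference, the differences at the 2 time points had a Pearson correlation of -0.16 and a Spearman correlation of -0.21. Called at both times were 79 clones, which were 39.3% of the calls at 48 hours and 40.5% of those at 12 hours. Of these, 15 were higher and 16 lower at both times, 41 were lower at 48 and higher at 12 hours, and 7 the reverse. Without the array that stood apart at 12 hours, 27 moved the same way and 53 in opposite ways. The 95% interval of the difference between the 2 changes excluded 0 for 413 of 1214 clones (34.0%) and for 152 of the 201 called at 48 hours. That interval is as wide on either side as the limit, around a value that carries the error of 4 means in place of 2. The 201 clones were called for passing that same limit at 48 hours, so their high share follows in part from the selection.

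**Figure D5:**
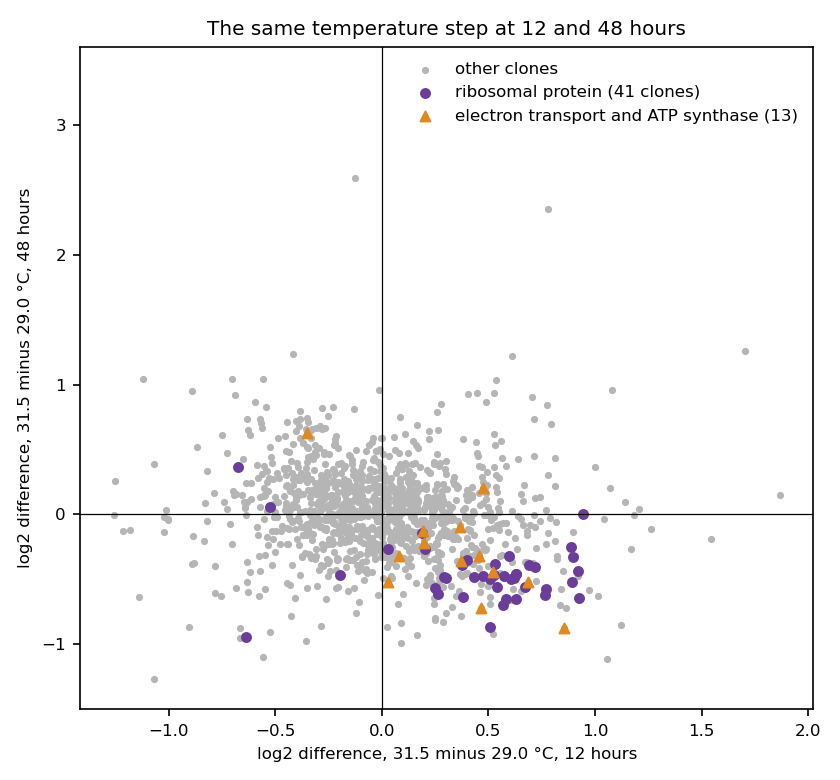
Log2 difference between 31.5 and 29.0°C at 12 hours (x axis) and at 48 hours (y axis); each point is a clone, and ribosomal protein clones and those of electron transport and ATP synthase are marked. Most of the marked clones lie in the lower right quadrant, positive at 12 hours and negative at 48 hours, with medians of 0.54 and -0.48 for ribosomal proteins.

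Group values at 12 hours hold all arrays, among them replicate 1 of 31.5°C, which stood apart, and are not given without it. Among ribosomal proteins at 12 hours, 22 of the 41 clones were higher at 31.5°C and 3 were lower, with a median difference of 0.54, and the changes at the 2 times differed for 37 of them, part of the 413. Ribosomal protein L3 was an exception, lower at both times (-0.64 at 12 hours). For electron transport and ATP synthase, 7 of 13 clones were higher at 12 hours, with a median of 0.37, and 10 differed between the times. Translation factors had a median of 0.26 at 12 hours, with 2 clones higher and 1 lower. That lower clone was the elongation factor 1-alpha clone CAOO902, which differed by -0.91 at 12 and -0.87 at 48 hours, while AOSF1463 of the same annotation differed by 0.84 at 12 and -0.70 at 48 hours. Falls of like size at both times were also found for AOSF1123, the largest fall (-1.07 at 12 hours), and histone H3.3 (-0.63). The same held for protein tyrosine phosphatase type 1 (-0.55), the alpha subunit of Sec61 (-0.58) and universal stress protein (-0.31). For all of these the interval of the difference between the times held 0. It also held 0 for rises called at both times in AOSC792 (1.08 at 12 hours), AOSF512 (0.38) and KIF21B (0.27). AOSB999 (0.61) and Chromodomain-helicase-7 (0.54) were called higher at 12 hours too, by less than at 48 hours.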

How the data were processed

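Log2 ratios of 18 two-colour cDNA arrays were analysed, with the 6 arrays of 29.0 and 31.5°C at 48 hours as the compared samples. For each spot and channel the authors deposited an intensity, integrated over the spot and less the local background (TIGR Spotfinder 2.2.4). From these the authors made the deposited table, in which a clone has 1 log2 ratio (Cy5 to Cy3) on each array after print-tip LOWESS. How duplicate spots were combined is not given in the sources used here. The scanner spots carry grid positions without clone names, so they served for signal levels and unnamed counts, after print-tip loess over 16 blocks in limma 3.58.1 (R 4.3.3). Clone sequences were not used here.

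Groups followed the array titles. For each clone a linear model with 1 mean per condition and 1 residual spread (12 degrees of freedom with all arrays, at least 2 arrays in both groups) gave 95% intervals, the linear-model form of the study's criterion. The difference of the differences between 48 and 12 hours came from the same model. As alternatives, arrays were centred or given an equal median absolute deviation, filters and the source of the spread were changed, a replicate block was added, each array was left out, linear ratios were used, and limma's moderated test, also with array weights, was run over the technical arrays at a Benjamini-Hochberg threshold of 0.05. Alternatives chosen after seeing the data were the 48 hour spread without replicate 1 of 29.0°C and the 12 hour counts without replicate 1 of 31.5°C.

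The functional groups came from the study's annotated list. Named are the 8 largest rises and 8 largest falls among called clones with separate arrays, the 2 largest of each direction per group, all SCRiP, histone and chloramphenicol acetyltransferase clones, 8 clones listed singly, and the 3 clones on either side of the criterion. Other clones named, among them the remaining elongation factor 1-alpha and ribosomal protein clones, were chosen after their values were seen. Members, groups and rules were chosen with earlier results of these data known. Interval calls and limma fits were tested on simulated data. The number of arrays limits the precision. Fits and plots used Python 3.11.15 (pandas 2.3.3, numpy 2.4.6, matplotlib 3.10.9, scipy 1.17.1).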

Additional observations from a re-analysis of the deposited data

Results flagged for a closer look

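The change between 29.0 and 31.5°C at 48 hours was set against the same change at 12 hours, which was measured on other arrays, by the interval of the difference between them, without a p-value because the arrays of a condition repeat 1 RNA isolation. That interval excluded 0 for 413 clones. Among the named clones, 13 were called in opposite directions at the 2 times. The change at 48 hours minus that at 12 hours was negative for 9 of them, which were lower at 48 hours and higher at 12 hours: -2.17 for the unnamed clone AOSF731, -1.73 for the lipid-binding subunit of ATP synthase (AOSC391), -1.54 for elongation factor 1-alpha (AOSF1463), -1.27 for calmodulin (AOSF573), -1.24 for chloramphenicol acetyltransferase (AOSC1094), -1.19 for NHP2-like protein 1 (AOSF1077), -1.10 for the ubiquitin-like protein FUBI (CAON1748), -1.05 for the beta subunit of Sec61 (CAOO1095) and -0.68 for cathepsin B (AOSF1172). It was positive for the other 4, higher at 48 hours and lower at 12 hours: 1.6 for the hypothetical protein AOSF1420, 1.39 for histone H1.0-A (AOSB632), 1.16 for UHRF1 (AOSB949) and 0.92 for Myosin-VIIa (AOSF969). Some calls passed their limits at 12 hours narrowly. UHRF1 changed there by -0.45 (limit 0.44), the beta subunit of Sec61 by 0.50 (limit 0.47) and AOSF1420 by -0.56 (limit 0.50). The 48 hour calls of cathepsin B, the beta subunit of Sec61 and histone H1.0-A were lost without single arrays, as given above. Replicate 1 of 31.5°C at 12 hours and replicate 1 of 29.0°C at 48 hours stood apart from their groups, and the count of 413 was 397 without the former and 371 without the latter.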

How the results depend on the processing

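The count of 201 clones became 207 with arrays centred, 299 with arrays scaled to the same spread, 182 over clones on all 18 arrays, 220 with linear ratios, 234 with the spread of the 6 compared arrays, 298 with that of the 9 arrays of 48 hours, and 203 by limma, and was 140 to 196 without 1 array. Of the 201 calls, 143 were kept with the spread of the 6 compared arrays, 170 with linear ratios, 177 with the spread of the 9 arrays, 179 by limma and 138 to 167 without 1 array. It moved further to 478 with array weights (229 higher, 249 lower) and to 385 with the 48 hour spread and without replicate 1 of 29.0°C (162 higher, 223 lower), the latter chosen after seeing the data. A replicate block gave 209. Same-numbered arrays of the 2 temperatures deviated together at correlations of 0.01 to 0.07, and differently numbered ones at -0.09 to 0.06. With 3 arrays per temperature such values cannot show whether the numbers pair the arrays, and the main model did not pair them. The 12 hour count of 195 became 124 with arrays scaled to the same spread and 385 with array weights. The count of 413 clones that differed between the times became 265 by limma and was 358 to 406 without 1 array. Among the unnamed spots called, 141 of 381 were higher after loess and 280 of 496 after median centring. Over clones on all 18 arrays the median difference was -0.36 for electron transport, -0.039 for antioxidants, -0.46 for the ER group, 0.059 for the cytoskeleton and 0.036 for transport, against -0.32, -0.11, -0.37, -0.02 and -0.17. The electron transport median was -0.35 with linear ratios and -0.38 to -0.32 without 1 array. The apoptosis and autophagy median of -0.27 was -0.30 to -0.17 without 1 array, -0.17 with the 48 hour spread and without replicate 1 of 29.0°C, and -0.15 with array weights. Of the 57 named calls, 12 were lost with the spread of the 6 compared arrays and 9 with linear ratios. No called difference of a named clone turned its sign under any setting run, but 5 differences that were not called did so without 1 array: SCRiP2 (AOSF1192, -0.10 to 0.11), heat shock transcription factor 1 (CAON1605, -0.07 to 0.22), soma ferritin (CAON1101, -0.03 to 0.14), a heat shock protein (CAOO2018, -0.51 to 0.11) and a chloramphenicol acetyltransferase clone (CAOO1050, -0.13 to 0.11). Of the named calls, 42 held without each array in turn. The causes of these shifts were not tested.

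Each temperature was represented by 1 RNA isolation, so none of these settings bears on the spread between cultures. The median limit was 0.50, and 83 clones had a limit above 1. Clones of the same or similar annotation may share sequence, and hybridisation between copies was not tested.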

Other observations

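Some clones followed each other closely over all 18 arrays, as a description of clones chosen after their values were seen, with the reference and the arrays in common. The profile of complement component q subcomponent binding protein (AOSB999) correlated at 0.98 with that of Chromodomain-helicase-7 (AOSB771) and at 0.95, 0.92 and 0.91 with those of CAON1349, CAON1777 and CAON1810. The profile of peroxidasin (AOSF997) correlated at 0.93 with that of AOSF778, at 0.89 with that of the hypothetical protein AOSF1420, at 0.88 with that of tachylectin-2 (AOSF387), a lectin of innate immunity in horseshoe crabs, and at 0.83 with that of catalase (AOSF550). Tachylectin-2 rose by 0.65 between 29.0 and 31.5°C (limit 0.49), while catalase differed by 0.17 and did not pass. Mean ratios of catalase at 29.0 and 31.5°C were -1.39 and -1.23 at 12 hours and 1.18 and 1.35 at 48 hours.

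Calls were spread unevenly over the name prefixes of the clones. Among 77 clones named AOSB 12 were higher and 2 lower, with a median difference of 0.16. Among 560 named AOSF 18 were higher and 71 lower, and among 320 named CAON 33 were higher and 20 lower. What the prefixes stand for is not given in the sources used here, and their part in the group counts was not tested.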
